A study of Mus musculus with 15 samples.

Results

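The genes that turn a macrophage into an osteoclast were examined in bone marrow-derived macrophages (BMDMs), for the regions enriched for the histone variant H3.3, for acetylated lysine 27 of histone H3 (H3K27ac) and for trimethylated lysine 36 of histone H3 (H3K36me3). The set was chosen by name, with earlier results of these data known. It held 9 of 21911 protein-coding genes: the receptors Tnfrsf11a (RANK) and Oscar, the adaptor Traf6, the transcription factors Fos and Nfatc1, the fusion proteins Dcstamp and Ocstamp, and the effectors Acp5 (tartrate-resistant acid phosphatase) and Itgb3 (the beta subunit of the vitronectin receptor). All 9 were found in the annotation (GENCODE M21, build mm10). Each gene was read over its body together with the 5 kb before its start, called its window, and the value of a library was the percent of that window lying within its called regions.

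Macrophages and osteoclasts share a myeloid precursor. M-CSF keeps the precursor alive, and RANKL, acting through its receptor RANK and the adaptor TRAF6, turns on c-Fos and then NFATc1, the master transcription factor of the osteoclast. NFATc1 in turn drives the genes for cell fusion, such as Dcstamp and Ocstamp, and for bone resorption and attachment, such as Acp5 and Itgb3, with OSCAR acting as a co-stimulatory receptor. H3K27ac marks active promoters and enhancers, H3K36me3 is laid down across the bodies of transcribed genes, and H3.3 is the H3 variant deposited outside of DNA replication, at active genes among other places.

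CUT&RUN, in which an antibody directs a nuclease to chromatin and the released DNA is sequenced, was performed on BMDMs of C57BL/6 mice, male and female, aged 8 to 10 weeks. All BMDMs were cultured for 6 to 8 days in medium with 20% L929-conditioned medium, a source of M-CSF, and no RANKL was named in the sources used here. WT cells carried floxed H3.3 genes (H3f3a fl/fl, H3f3b fl/fl) and no Cre, and cKO cells carried the same alleles and LysM cre/cre, a Cre knocked into the myeloid gene Lyz2, so that the WT cells lacked both Cre and the altered Lyz2. H3.3-HA cells, a group of their own, carried an HA tag on the H3.3 made from H3f3b. There were 2 biological replicates per group, giving 10 region lists: 2 of H3.3-HA, and 2 WT and 2 cKO for each of H3K27ac and H3K36me3. The 5 IgG samples entered only as the background used by the authors during region calling.

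Libraries held 5365319 to 29988098 tags, and covered 46.2 to 89.6 Mb with H3K27ac regions, 90.7 to 170 Mb with H3K36me3 regions and 56.2 to 62.8 Mb with H3.3-HA regions. The cKO H3K36me3 replicate 1 stood apart, with 19.3% of its tags in regions and 90.7 Mb covered, against 46.5% and 163 Mb in cKO replicate 2 and 47.1% and 50.2% in the WT libraries. Of the H3K27ac libraries, cKO replicate 1 had the lowest share of tags in regions, 11.8%, against 17.8% in cKO replicate 2 and 24.1% and 21.5% in WT. The lists did not show the deletion: no library had a region over exon 2 of H3f3a, and the body of H3f3b was covered by H3K27ac regions for 55.4% and 73.6% in the libraries labelled cKO and for 23.9% and 24.1% in those labelled WT. H3K36me3 regions covered 39.6% and 33.6% of the H3f3b body in cKO and 10.7% and 14.2% in WT. The paper reported the deletion from PCR, RNA and protein measurements, with H3f3b only partly deleted in some cKO samples. In these lists the direction of every difference between genotypes therefore rests on the labels. Of 8 macrophage marker genes, 8 held an H3K27ac region in both WT libraries and 7 in both cKO libraries, and all 8 held H3K36me3 regions in all 4 libraries. Of 4 markers of mature osteoclasts, Calcr was at 0 in all 10 libraries and Mmp9 held no H3K27ac region, while Ctsk and Atp6v0d2 held regions of both marks in every library. H3K27ac regions were present in both WT libraries at 1 of 5 neutrophil, 0 of 4 dendritic cell, 0 of 4 T cell, 0 of 4 B cell, 1 of 5 osteoblast and stroma and 0 of 3 mast cell and basophil markers, and in both cKO libraries at 1, 1, 0, 0, 1 and 0 of them.

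The promoter sequences of 4 of the 9 genes show the range of what was found at their starts. Promoters were taken from RefSeq (build GRCm38.p6, the same as mm10), 250 bases before and 50 bases after the start, and 5 of the 9 genes matched: Tnfrsf11a, Oscar, Traf6, Fos and Acp5. Capitals mark any of 5 motifs searched on both strands: the TATA box TATAAA, the core of a cyclic AMP response element, TGACGT, the ETS core GGAAGT, the GC box GGGCGG, and the AP-1 site TGANTCA.
Fos promoter, chr12:85473640-85473939, plus strand: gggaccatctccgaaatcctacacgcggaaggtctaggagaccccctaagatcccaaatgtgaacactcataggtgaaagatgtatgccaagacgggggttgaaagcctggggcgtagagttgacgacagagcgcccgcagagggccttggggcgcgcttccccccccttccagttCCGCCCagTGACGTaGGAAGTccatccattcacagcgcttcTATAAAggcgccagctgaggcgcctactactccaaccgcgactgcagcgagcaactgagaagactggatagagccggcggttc
Tnfrsf11a promoter, chr1:105780473-105780772, plus strand: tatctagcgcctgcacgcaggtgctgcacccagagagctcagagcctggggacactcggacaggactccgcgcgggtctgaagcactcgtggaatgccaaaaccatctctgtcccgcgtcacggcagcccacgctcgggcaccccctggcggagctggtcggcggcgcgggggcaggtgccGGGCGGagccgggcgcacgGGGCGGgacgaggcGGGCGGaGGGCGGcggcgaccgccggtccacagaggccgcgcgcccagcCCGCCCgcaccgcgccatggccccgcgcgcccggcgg
Traf6 promoter, chr2:101678170-101678469, plus strand: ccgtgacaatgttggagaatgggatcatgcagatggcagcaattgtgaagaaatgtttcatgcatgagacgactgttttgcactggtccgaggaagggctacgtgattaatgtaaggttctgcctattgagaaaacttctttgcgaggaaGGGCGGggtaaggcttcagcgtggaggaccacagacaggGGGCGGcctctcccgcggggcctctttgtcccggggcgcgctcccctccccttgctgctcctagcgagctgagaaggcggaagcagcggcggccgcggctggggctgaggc
Acp5 promoter (the start farthest upstream), chr9:22135697-22135996, minus strand: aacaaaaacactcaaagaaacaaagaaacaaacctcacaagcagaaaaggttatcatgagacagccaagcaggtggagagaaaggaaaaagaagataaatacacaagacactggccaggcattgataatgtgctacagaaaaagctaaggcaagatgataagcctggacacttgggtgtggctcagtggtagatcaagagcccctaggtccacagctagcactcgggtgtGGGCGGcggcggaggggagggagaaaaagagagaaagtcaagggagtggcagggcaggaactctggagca

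The 300 bases of the Fos promoter were covered whole by an H3K27ac region in both cKO libraries and not at all in either WT library. In the Tnfrsf11a promoter it was the WT libraries that covered more, 258 and 217 bases, against 160 and 0 bases in cKO. At the Traf6 promoter 21 and 0 bases were covered in WT and 33 and 126 bases in cKO, and the Acp5 promoter was covered in none of the 10 libraries. The Fos promoter held a TATAAA 33 to 28 bases before the start, found in 13.6% of 32851 RefSeq promoters of this length. It also held a TGACGT 66 to 61 bases before the start, present in 7.51% of them, and a GGAAGT 59 to 54 bases before the start, present in 23.8%. The Tnfrsf11a promoter was 76.7% G and C and held 5 GGGCGG matches, 4 of them 69 to 24 bases before the start, and the Traf6 promoter held 2. GGGCGG was present in 35.7% of the promoters and TGANTCA in 7.81%, the latter in none of the 4 shown. A match is a string of letters and was not tied to binding here.

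**Figure D1:**
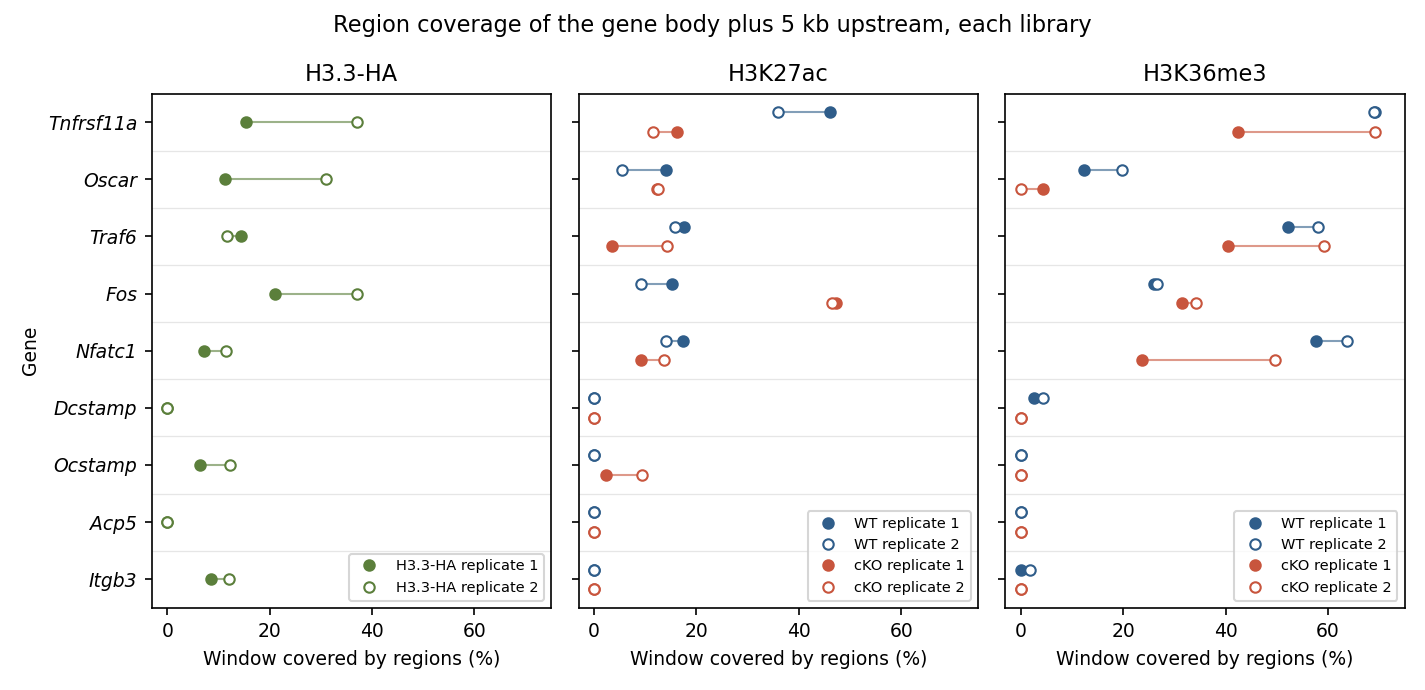
Percent of the window (gene body plus 5 kb upstream) covered by regions, for each of the 9 genes (rows) and each library (filled points replicate 1, open points replicate 2, lines joining the replicates of a group), in separate panels for H3.3-HA, H3K27ac and H3K36me3. Tnfrsf11a and Fos lie at opposite sides for H3K27ac, with the cKO points below the WT points at Tnfrsf11a and above them at Fos. The 4 lowest genes are at or near 0 for both marks, except for H3K27ac at Ocstamp in cKO.

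The 9 windows comprised those that carried these marks in macrophages and those that hardly did (the plot of coverage by library). The windows of Tnfrsf11a, Traf6, Fos and Nfatc1, which act early in the pathway, held regions of both marks in both WT libraries. So did that of Oscar, but there the WT regions of both marks lay upstream, over neighbouring genes, and not on the body of Oscar. Of the genes for the later steps, Dcstamp, Acp5 and Itgb3 held no H3K27ac region in any library and Ocstamp none in WT. In all, 6 of the 9 windows held an H3K27ac region in at least 1 of the 4 libraries, against 58.2% of all protein-coding genes, and 7 held an H3K36me3 region, against 54.6%. An H3.3-HA region found in both libraries lay in 7 of the 9 windows, against 40.6% of all genes, the exceptions being Dcstamp and Acp5. That share was not split by window length. In bulk chromatin, fewer cells with a mark and less of it per cell cannot be told apart. A percent of a window depends on its length, which ran from 8.38 kb at Fos to 112 kb at Nfatc1.

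Loss and gain were read from the 4 lists of a mark merged into 1 set, a region being lost when both WT libraries and neither cKO library overlapped it, and gained in the opposite case. For H3K27ac, 3 of the 6 genes with a region had a lost region, Tnfrsf11a, Traf6 and Nfatc1, and 2 had a gained region, Oscar and Traf6. Under another rule a library had to cover at least 50% of the merged region, and one that covered less counted as absent. Gained H3K27ac regions at the 9 genes then numbered 7 in place of 2, with 2 each at Fos and Nfatc1 and 1 each at Oscar, Traf6 and Ocstamp. Lost ones numbered 9 in place of 10, and the shares over all genes under this rule were not computed. Under the overlap of 1 base, 37.3% of all genes with an H3K27ac region had a lost and 17.3% a gained region. Among windows of 60 kb or more, such as those of Tnfrsf11a and Nfatc1, 66.2% had a lost region. Coverage was lower in both cKO libraries than in both WT libraries at Tnfrsf11a, Traf6 and Nfatc1 and higher in both at Fos and Ocstamp, and over all genes with a region these shares were 38.2% and 17.4% (60.8% and 6.04% for windows of 60 kb or more). For H3K36me3, 1 of 7 genes with a region had a lost region, Nfatc1, against 23.6% of all genes with a region and 50.5% of those with windows of 60 kb or more, and none had a gained region, against 8.46% (17.6% for windows of 60 kb or more and 4.11% for those under 20 kb). H3K36me3 coverage was lower in both cKO libraries at Oscar, Nfatc1 and Dcstamp and higher in both at Fos, with 37.7% and 7.84% over all genes with a region (47.8% and 3.8% for windows of 60 kb or more). The median of the cKO mean minus the WT mean over the 9 genes was 0 percentage points for H3K27ac and -3.46 points for H3K36me3, and over all protein-coding genes, many of them without a region, both medians were 0. Among genes with a region the medians were -0.837 points over the members and -1.01 points over all genes for H3K27ac, and -5.29 and -4.99 points for H3K36me3. With 2 libraries against 2, a two-sided exact permutation test cannot give a p below 0.333, the value given by each gene whose groups did not overlap, so no difference of a single gene passed 0.05.

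**Figure D2:**
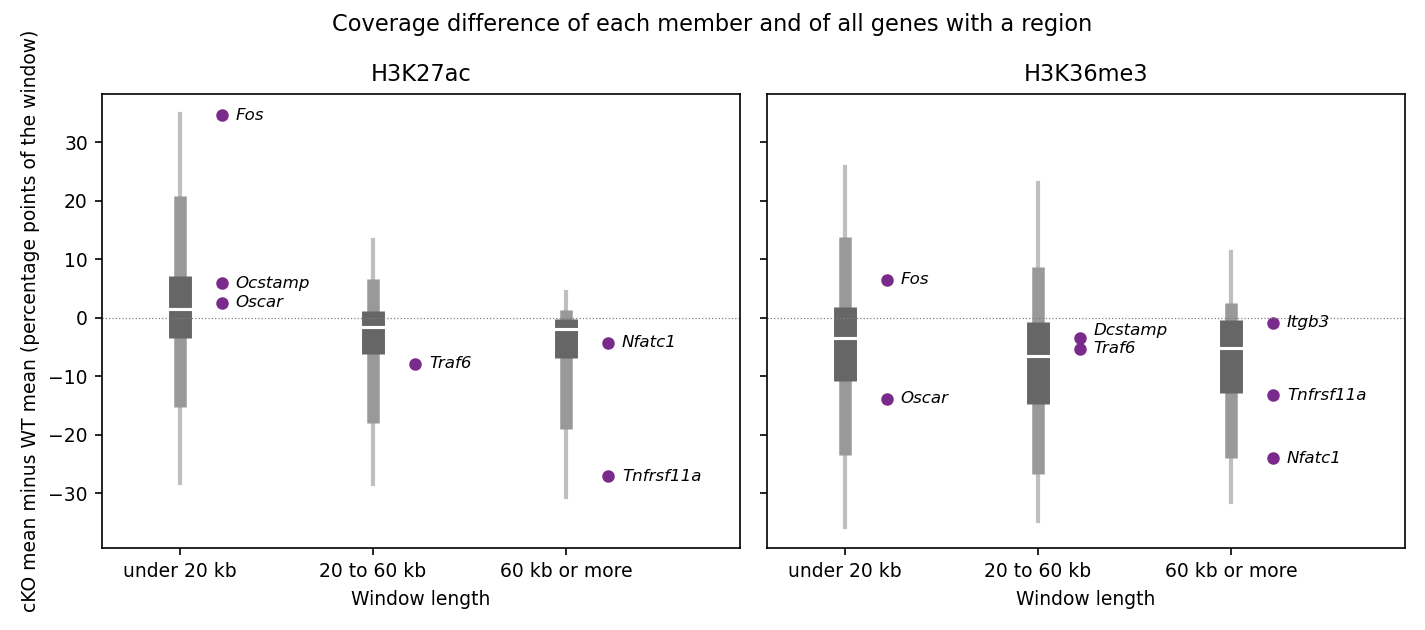
Coverage difference (cKO mean minus WT mean, in percentage points of the window) of each of the 9 genes with a region of the mark (purple points) beside all protein-coding genes with a region, split by window length; the thin, middle and thick grey bars span the percentiles 1 to 99, 5 to 95 and 25 to 75, and the white line is the median. Fos lies near the top of the short windows for H3K27ac and Tnfrsf11a near the bottom of the long ones, and the medians of long windows lie below 0 for both marks.

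Tnfrsf11a encodes RANK, the receptor through which RANKL starts osteoclast formation, and it carried the broadest H3K27ac of the 9 genes in WT BMDMs. The gene (ENSMUSG00000026321.7, chr1:105780718-105847981, plus strand) was covered by H3K27ac regions for 46.0% and 35.9% of its window in the WT libraries and for 16.2% and 11.6% in the cKO libraries. Both cKO values lay below both WT values. The means were 41.0% ± 7.14 (SD, n = 2) and 13.9% ± 3.24 (SD, n = 2), 2.95-fold lower in cKO, a difference (cKO minus WT) of -27.1 percentage points (two-sided exact permutation test, p = 0.333). Of all genes with an H3K27ac region, 1.28% had a more negative difference, and of those with windows of 60 kb or more 1.45%. The WT mean was above that of 94.3% of all genes with a region.

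The lost H3K27ac regions of Tnfrsf11a lay in its introns (the region map of Tnfrsf11a). In the WT libraries regions began 203 and 162 bases before the start and ran, nearly without a break, to 11151 and 11156 bases after it. In cKO the same stretch was still overlapped by both libraries, with regions from 3677 to 10907 bases after the start in replicate 2. A second stretch, 19.9 to 25.5 kb after the start, was also overlapped in all 4 libraries, for 5572 and 5266 bases in WT and for 3052 and 2046 bases in cKO. Between these stretches and beyond them lay 7 lost regions with a summed length of 12950 bases, all with their midpoints in introns, at 12.2 to 49.9 kb after the start. The widest of the 7, 30.0 to 34.5 kb after the start, was covered for 4430 and 1939 bases in WT. The cKO region farthest from the start ended 27512 bases after it, whereas WT regions reached 63305 and 49525 bases. Within 1 kb of the start, 1204 and 1163 bases were covered in WT and 501 and 0 bases in cKO, and both cKO values lay below both WT values. Such a lower value at the start was the less common direction, since of 9757 genes with an H3K27ac region there 12.7% were lower and 40.5% higher in both cKO libraries.

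**Figure D3:**
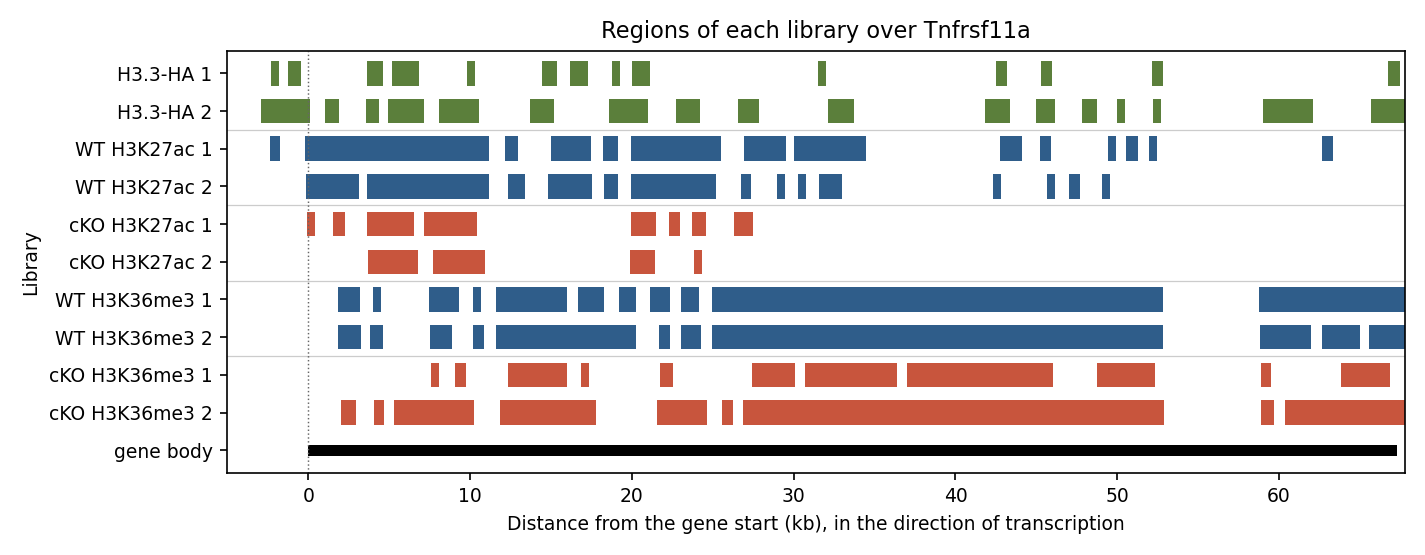
Called regions of the 10 libraries over Tnfrsf11a, by distance from the gene start in kb (bars, 1 row per library, green H3.3-HA, blue WT, red cKO), with the gene body as a black bar. The H3K27ac regions of the cKO libraries end at 27512 bases after the start at the latest, while those of WT go on in the introns beyond it, and H3K36me3 spans the same introns in all 4 libraries.

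H3.3-HA lay over much of the same ground. It covered 15.3% and 37.1% of the Tnfrsf11a window, with 10 regions found in both libraries, the first from 2887 bases before to 126 bases after the start, and 9 found in a single library. Of the 7 lost H3K27ac regions 4 overlapped a shared H3.3-HA region, and both stretches kept in all 4 libraries did. Within 2 of the lost Tnfrsf11a regions, and in the lost region of Traf6, the stretch common to both WT H3K27ac and both H3.3-HA lists was at least 200 bases long, as it was in a lost region of Nfatc1 that is not shown. The middle 200 bases of the Tnfrsf11a and Traf6 stretches are given as the sequence of elements whose H3K27ac call differed between genotypes, with the same motifs in capitals.
Tnfrsf11a element, chr1:105799562-105799761, plus strand: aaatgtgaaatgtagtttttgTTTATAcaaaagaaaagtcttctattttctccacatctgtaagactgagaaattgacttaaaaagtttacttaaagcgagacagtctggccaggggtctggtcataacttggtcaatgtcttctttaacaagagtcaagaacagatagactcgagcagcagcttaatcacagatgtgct
Tnfrsf11a element, chr1:105826397-105826596, plus strand: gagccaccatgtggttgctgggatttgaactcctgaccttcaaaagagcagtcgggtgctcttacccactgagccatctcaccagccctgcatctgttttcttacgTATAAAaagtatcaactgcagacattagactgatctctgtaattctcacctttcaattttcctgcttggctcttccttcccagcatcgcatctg
Traf6 element, chr2:101695996-101696195, plus strand: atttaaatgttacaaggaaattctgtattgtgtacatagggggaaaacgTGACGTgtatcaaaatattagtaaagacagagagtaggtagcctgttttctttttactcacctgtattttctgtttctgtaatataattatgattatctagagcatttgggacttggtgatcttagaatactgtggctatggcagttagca

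These elements lay in introns, the Tnfrsf11a elements 18.8 and 45.7 kb and the Traf6 element 17.6 kb after the start. Each Tnfrsf11a element held 1 TATAAA, printed as its reverse complement in the first, and TATAAA was present in 14.4% of the 2511 such elements of the genome. The Traf6 element held a TGACGT, present in 1.59% of them, and the other motifs, GGAAGT present in 23.7%, GGGCGG in 2.31% and TGANTCA in 8.68%, were in none of the 3. Of the 200 bases, 0 and 94 in the Tnfrsf11a elements and 46 in the Traf6 element were marked as repeats in the reference, and the uniqueness of read placement there was not tested.

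H3K36me3 at Tnfrsf11a showed no separation of the genotypes. The WT libraries covered 69.2% and 68.9% of the window and the cKO libraries 42.5% and 69.2%. The low value was that of cKO replicate 1, the library with 19.3% of its tags in regions, and cKO replicate 2 lay with WT. The means were 69.0% ± 0.199 (SD, n = 2) and 55.8% ± 18.9 (SD, n = 2), and without cKO replicate 1 the difference was 0.149 percentage points. A block of 27974 bases, 24.9 to 52.9 kb after the start, was overlapped in all 4 libraries, for 27886 and 27840 bases in WT and 20976 and 26701 bases in cKO, and 4 of the 7 lost H3K27ac regions of the gene lay inside it. None of the Tnfrsf11a H3K36me3 regions was lost or gained.

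Oscar encodes a collagen-binding receptor that signals through ITAM adaptors. It lies on chr7:3609813-3616157, minus strand (ENSMUSG00000054594.13), and its H3K27ac values overlapped between genotypes, 14.0% and 5.53% in WT and 12.3% and 12.4% in cKO. The means differed by 2.59 percentage points, less than the spread between the WT libraries (SD 6.00, n = 2; two-sided exact permutation test, p = 1). No H3K27ac region lay within 1 kb of the Oscar start in any library, and the nearest, found in all 4, began 1.00 to 1.10 kb upstream, where the window runs into the neighbouring gene Ndufa3. The gained region, chr7:3610023-3610669, was 647 bases wide, lay near the far end of the gene body and overlapped a shared H3.3-HA region. H3K36me3 covered 12.3% and 19.7% in WT and 4.42% and 0% in cKO, both cKO values below both WT values. All of those H3K36me3 regions lay 2.70 kb or more upstream of the start, over Ndufa3 and Tfpt, and none reached the body of Oscar. H3.3-HA covered 11.2% and 31.0%, with 2 shared regions, both in the gene body.

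Traf6 encodes the ubiquitin ligase and adaptor that couples RANK to NF-kappaB and MAP kinases. In its window (ENSMUSG00000027164.8, chr2:101678429-101701669 for the gene, plus strand) H3K27ac covered 17.6% and 15.8% in WT and 3.55% and 14.2% in cKO. Both cKO values were below both WT values, with the distance coming mainly from cKO replicate 1, and without that library the difference was -2.52 points in place of -7.84 points. The promoter region, from 85 bases before to 1900 bases after the start, was overlapped in all 4 libraries. An intronic region of 976 bases, 17.3 to 18.3 kb after the start, was lost and overlapped a shared H3.3-HA region, and one of 527 bases, 2.58 to 3.10 kb after the start, was gained. H3K36me3 covered 52.2% and 58.1% in WT and 40.5% and 59.2% in cKO, and the groups overlapped. The difference of the H3K36me3 means was -5.29 points with all 4 libraries and 4.04 points without cKO replicate 1, so that its direction turned.

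Fos encodes the AP-1 subunit c-Fos, without which osteoclasts do not form, and of the 2 genes with more H3K27ac coverage in both cKO libraries, Fos and Ocstamp, it had the larger difference. In its window (ENSMUSG00000021250.13, chr12:85473890-85477273 for the gene, plus strand) H3K27ac covered 15.2% and 9.26% in WT and 47.2% and 46.6% in cKO. The cKO values were close together and far above both WT values. The means were 12.2% ± 4.19 (SD, n = 2) and 46.9% ± 0.472 (SD, n = 2), 3.84-fold higher in cKO by 34.7 percentage points (two-sided exact permutation test, p = 0.333). The difference was larger than that of 99.6% of all genes with an H3K27ac region and of 98.9% of those with windows under 20 kb, where 28.9% of genes were higher in both cKO libraries and 19.4% lower.

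The added H3K27ac lay before and across the Fos start (the region map of Fos). In WT the promoter region began 354 and 270 bases after the start and ended 1125 and 903 bases after it. In cKO it began 1835 and 1844 bases before the start and ended 1058 and 970 bases after it, so that the downstream edge was alike and the upstream edge was not. A region farther upstream was 501 bases wide in both WT libraries, 5.88 to 5.30 kb before the start and so outside the window, and 2420 and 1994 bases wide in the cKO libraries, reaching to 3.94 and 3.91 kb before the start. Within the gene body alone the genotypes did not separate in this way, and the difference of the means was -0.281 points, so the higher cKO value of the window came from the 5 kb upstream. Within 1 kb of the start 647 and 634 bases were covered in WT and 2001 and 1971 bases in cKO. A higher value in both cKO libraries was found at 40.5% of genes with H3K27ac there, and the Fos difference exceeded that of 94.2% of them. Because all 4 libraries overlapped both of these regions by at least 1 base, neither counts as lost or gained, but both counted as gained when a library had to cover at least 50% of the merged region.

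**Figure D4:**
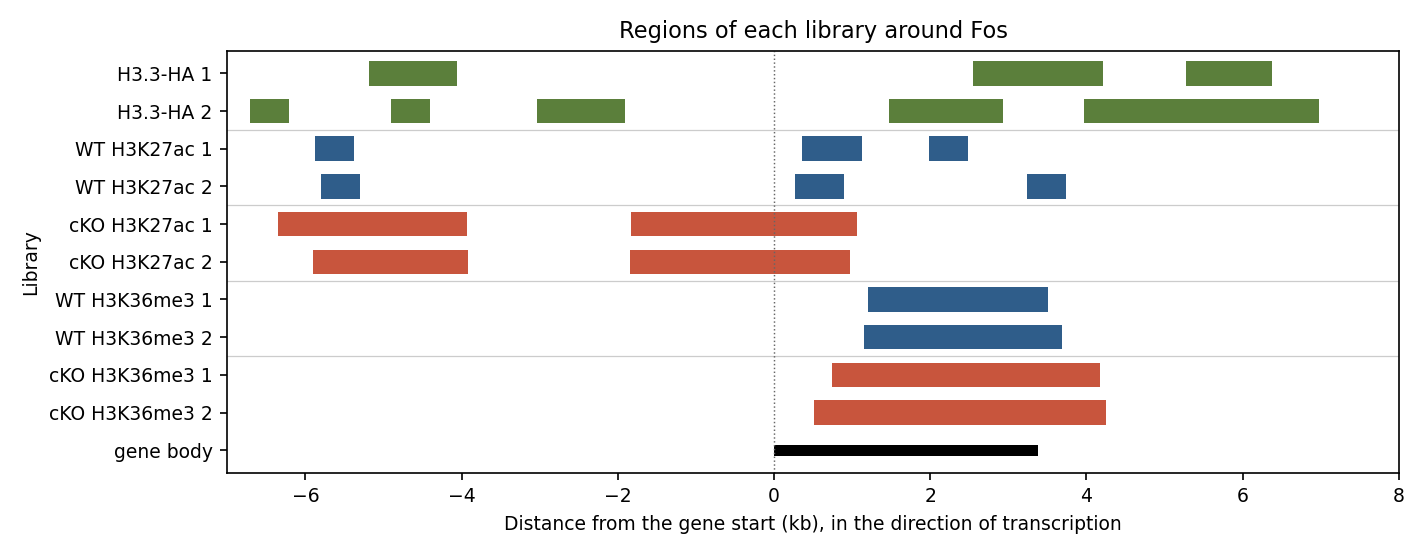
Called regions of the 10 libraries around Fos, by distance from the gene start in kb (bars, 1 row per library, green H3.3-HA, blue WT, red cKO), with the gene body as a black bar. The H3K27ac regions of both cKO libraries span the start and reach upstream of it, those of both WT libraries begin after it, and the H3K36me3 regions of all 4 libraries lie over the body and the 3 prime flank.

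H3K36me3 at Fos was also higher in cKO, by a smaller amount. It covered 26.1% and 26.5% in WT and 31.5% and 34.2% in cKO. The groups did not overlap, including the cKO replicate with the low share of tags in regions, and the difference was 6.54 percentage points. A single region was called in each library, beginning 1198 and 1159 bases after the start in WT and 746 and 515 bases after it in cKO. Among genes with windows under 20 kb and an H3K36me3 region 12.1% were higher in both cKO libraries. H3.3-HA covered 21.1% and 37.0% of the Fos window, with shared regions 4.06 to 5.18 kb before the start and over the 3 prime end and beyond, and neither library had a region at the start, the nearest lying 2.55 and 1.47 kb after it.

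Nfatc1 encodes the master transcription factor of osteoclast formation. The gene (ENSMUSG00000033016.16, chr18:80606205-80713071, minus strand) has start sites about 4.90 kb apart. H3K36me3 covered 57.6% and 63.8% of its window in WT and 23.7% and 49.7% in cKO. Both cKO values were below both WT values, the lower being that of cKO replicate 1. The means were 60.7% ± 4.32 (SD, n = 2) and 36.7% ± 18.4 (SD, n = 2), 1.65-fold lower in cKO, a difference of -24.0 points, or of -10.99 points without cKO replicate 1 (two-sided exact permutation test on all 4 libraries, p = 0.333). It was more negative in 6.05% of all genes with an H3K36me3 region and in 4.86% of those with windows of 60 kb or more. The 3 lost H3K36me3 regions of Nfatc1, of 3046, 1080 and 748 bases, lay 91.7, 73.9 and 40.0 kb after the start, in introns, and none overlapped a shared H3.3-HA region, while 6 regions with a summed length of 70808 bases were overlapped in all 4 libraries (the region map of Nfatc1).

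**Figure D5:**
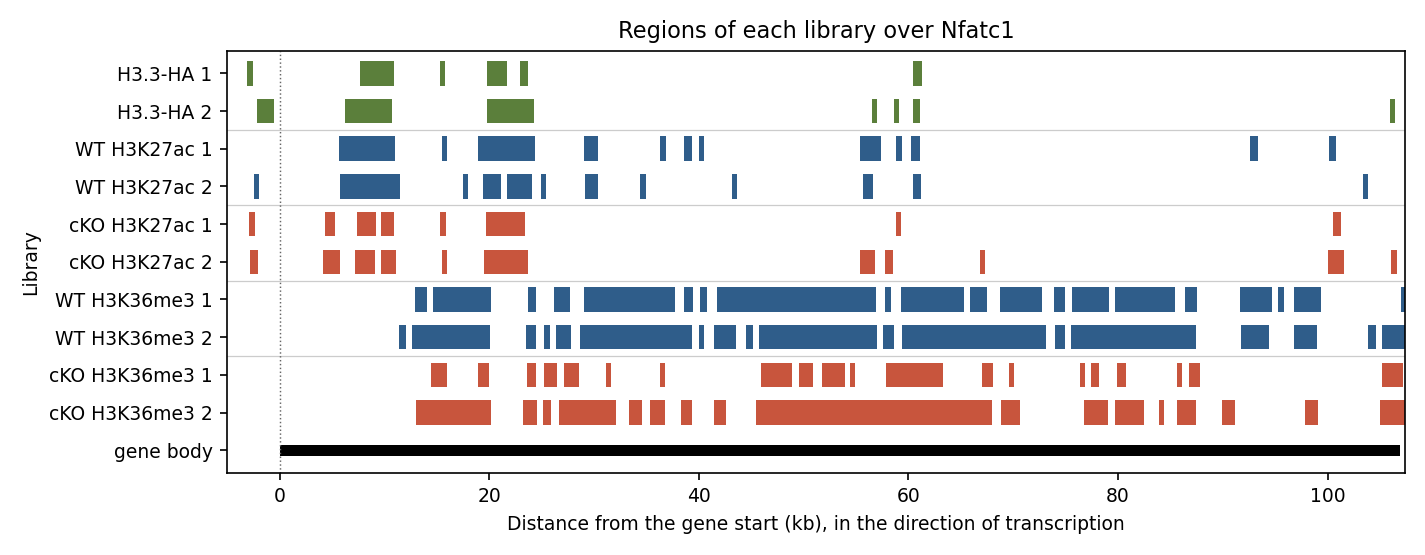
Called regions of the 10 libraries over Nfatc1, by distance from the gene start in kb (bars, 1 row per library, green H3.3-HA, blue WT, red cKO), with the gene body as a black bar. H3K36me3 regions cover less of the gene body in both cKO libraries, least in replicate 1, and the H3K27ac regions found in all 4 libraries lie 4.14 to 11.5 kb and 18.97 to 24.3 kb after the start.

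H3K27ac at Nfatc1 differed less. It covered 17.3% and 14.0% of the window in WT and 9.18% and 13.6% in cKO. The groups did not overlap, but cKO replicate 2 came within reach of WT replicate 2, and the difference was -4.26 points, 35.6% of genes with windows of 60 kb or more having a more negative one. Regions 4.14 to 11.5 kb after the gene start, which reach the inner start sites, and 18.97 to 24.3 kb after it were overlapped in all 4 libraries, and both overlapped shared H3.3-HA regions. The 2 lost H3K27ac regions, of 1349 and 890 bases, lay 29.01 and 60.3 kb after the start, the second over a shared H3.3-HA region. No H3K27ac region lay within 1 kb of the outer start in any library. Within 1 kb of the inner start, 218 and 181 bases were covered in WT and 979 and 1618 bases in cKO. The region lay over that start in both cKO libraries and in neither WT library, as at Fos, although the Nfatc1 window as a whole was less covered in cKO. Of 9757 genes with an H3K27ac region within 1 kb of the gene start, 40.5% were higher there in both cKO libraries. No share was computed over inner starts. H3.3-HA covered 7.13% and 11.4% of the window.

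Dcstamp encodes the dendritic cell-specific transmembrane protein needed for the fusion of osteoclast precursors. The gene (ENSMUSG00000022303.9, chr15:39745930-39760938, plus strand) held no H3K27ac or H3.3-HA region, and the nearest H3K27ac region, called in all 4 libraries, lay 7.09 to 7.32 kb before its start. H3K36me3 covered 2.50% and 4.41% in WT and 0% in both cKO libraries. The WT values came from 1 region of 501 bases in replicate 1 and 2 regions in replicate 2, at different places, so no lost region was called.

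Ocstamp, which encodes a second fusion protein of osteoclast precursors, held no H3K36me3 region. H3K27ac covered 0% in both WT libraries and 2.34% and 9.41% in cKO (ENSMUSG00000027670.4, chr2:165393760-165400405, minus strand). The cKO values came from 1 region at the edge of the window, 5.94 to 3.91 kb before the start, which overlapped the neighbouring gene Slc13a3 and was called in all 4 libraries, at a width of 501 bases in each WT library and 1056 and 2031 bases in the cKO libraries. Without cKO replicate 2 the difference was 2.34 points in place of 5.87 points. Nearer to the Ocstamp start lay only H3.3-HA, with a shared region 2.36 to 0.935 kb before it.

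Acp5 encodes the phosphatase by which osteoclasts are stained. The gene (ENSMUSG00000001348.15, chr9:22126727-22135711, minus strand) was at 0% in all 10 libraries. The nearest regions to its outermost start lay 7.12 kb away for H3.3-HA, 7.15 kb for H3K27ac and 21.3 kb for H3K36me3.

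Itgb3, whose product pairs with the alpha v subunit to attach the osteoclast to bone, held H3.3-HA near its start and hardly any of the marks. H3.3-HA covered 8.51% and 12.1% of its window (ENSMUSG00000020689.4, chr11:104608000-104670476, plus strand), with 4 shared regions. The shared region nearest to the start ran from 721 to 2351 bases after it in replicate 1 and from 69 bases before to 1323 bases after it in replicate 2, so that only replicate 2 covered the start itself. H3K27ac was at 0% in all 4 libraries, the nearest region lying 42.0 to 57.8 kb from the start. H3K36me3 was at 0% in both cKO libraries and in WT replicate 1, and at 1.70% in WT replicate 2.

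Over the 9 genes together, 10 H3K27ac regions were lost at 3 genes, with a summed length of 16165 bases, and 6 of the 10 overlapped a shared H3.3-HA region, against 26.5% of the 12771 lost regions of the genome. Of 9 H3K27ac regions overlapped in all 4 libraries 6 did so, against 59.4% of such regions in the genome. None of the 3 lost H3K36me3 regions overlapped one, against 7.20%, and 10 of the 13 H3K36me3 regions overlapped in all 4 libraries did, against 35.0%. A wide region has more room to overlap another, and the 13 H3K36me3 regions had a summed length of 144464 bases. The shares of the genome were not matched for width. Since regions of 1 gene are also not independent and H3.3-HA was mapped in other mice, these counts are descriptions.

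The genes whose pattern over the 10 libraries was most like that of each member were found by the mean absolute difference in percent covered. Pi4kb was the closest to Tnfrsf11a, at 3.91 points, and Rabgef1 to Nfatc1, at 2.10 points. The closest genes to Fos were Ppia, at 4.87 points, and Btbd19, at 5.62 points. Ppia showed the same order as Fos, with H3K27ac at 6.75% and 5.34% in WT and at 40.7% and 50.4% in cKO. Parp2 was closest to Traf6, at 3.04 points, and Oit3 to Oscar, at 3.43 points. For Dcstamp, Ocstamp and Itgb3, which were near 0 in most libraries, the closest genes (Myoz3, Cyp8b1 and Scn2b) were other genes near 0.

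The rest of the osteoclast pathway was described from a list of 77 further genes in 8 roles. H3K27ac regions were present at 72 of them, with a lost region at 40 and a gained region at 10, and coverage was lower in both cKO libraries at 34 and higher in both at 9, beside 37.3%, 17.3%, 38.2% and 17.4% of all genes with a region. Long windows were frequent in the list. Of its 28 genes with an H3K27ac region and a window of 60 kb or more, 25 had a lost region (66.2% of all genes of that size), 20 were lower in both cKO libraries (60.8%) and none was higher (6.04%), and of the 20 with windows under 20 kb 4 had a lost region (13.2%), 4 were lower (19.4%) and 7 higher (28.9%). For H3K36me3, 71 held a region, 23 had a lost and 9 a gained region, and coverage was lower in both cKO libraries at 23 and higher at 17, beside 23.6%, 8.46%, 37.7% and 7.84%. The medians of the difference over the 77 genes were -2.86 points for H3K27ac and -2.11 points for H3K36me3. A shared H3.3-HA region lay in 71 of the 77 windows, beside 40.6% of all genes. For H3.3-HA no share was computed by window length or over genes with a mark. Lost regions of both marks were found at 17 genes, and gained regions of both at 1, Mapk14 (the kinase p38 alpha). The share of all genes with lost or gained regions of both marks was not computed. Among all genes with windows of 60 kb or more and a region of the mark, 66.2% had a lost H3K27ac and 50.5% a lost H3K36me3 region.

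Among the 14 genes of signalling next to RANK, 11 had a lost H3K27ac region and 8 were lower in both cKO libraries, with none higher. Over all genes with a region these shares were 37.3%, 38.2% and 17.4%. All 7 of the 14 with windows of 60 kb or more had a lost region and 4 were lower, beside 66.2% and 60.8% of all genes of that size. Of the 7 with windows of 20 to 60 kb, 4 had a lost region and 4 were lower, and no share was computed for that size. Tab2, an adaptor that binds TRAF6 to the kinase TAK1, was covered by H3K27ac for 52.4% and 41.5% in WT and for 16.5% and 20.8% in cKO. Traf3, Gab2, Map3k7, Tab1 and Mapk8 were the others of this role with lost regions of both marks. Map3k7, which encodes TAK1 itself, had H3K36me3 over 52.8% and 52.7% in WT and over 17.9% and 47.7% in cKO. Its cKO libraries lay farther from each other than cKO replicate 2 lay from WT, as at Tab1, which had 65.9% and 58.3% in WT and 20.6% and 47.1% in cKO.

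Transcription factors were mixed. Of 18 genes, 17 held an H3K27ac region. Of these, 7 had a lost and 3 a gained region, and 5 were lower and 4 higher in both cKO libraries. Over all genes with a region the shares were 37.3%, 17.3%, 38.2% and 17.4%. Of the 7 with windows of 60 kb or more, 6 had a lost region and 5 were lower, beside 66.2% and 60.8% of all genes of that size. Of the 16 with an H3K36me3 region 11 were lower and 2 higher, beside 37.7% and 7.84% of all genes with a region. Among the 7 of them with windows of 60 kb or more, 6 were lower and none higher, beside 47.8% and 3.8%. Among the 6 with windows under 20 kb, 3 were lower and 2 higher, beside 28.4% and 12.1%. Junb, the partner of c-Fos in AP-1, had H3K27ac over 55.8% and 37.9% of its window in WT and over 82.8% and 92.1% in cKO, the same direction as Fos. Nfkb2, the precursor of the NF-kappaB subunit p52, was at 0% in both WT libraries and at 20.6% and 18.2% in cKO. Mitf, which drives resorption genes, had H3K36me3 over 67.7% and 66.7% in WT and 22.6% and 45.8% in cKO, and Relb, the partner of p52, had 74.9% and 77.5% in WT and 27.5% and 61.3% in cKO. At both genes the lower cKO value was that of replicate 1, the library with 19.3% of its tags in regions. Nfkb1, Fosl2, Mitf, Nfatc2 and Nfatc3 had lost regions of both marks.

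Of the 6 genes of fusion and the cell surface, 5 were lower for H3K27ac in both cKO libraries and none higher, beside 38.2% and 17.4% of all genes with a region. Cd44, a hyaluronan receptor, was covered for 61.9% and 48.1% in WT and for 18.9% and 18.1% in cKO, and Sirpa, the receptor for CD47, for 64.2% and 58.1% in WT and 33.7% and 38.2% in cKO. Cd47 had lost regions of both marks. Atp6v0d2, a subunit of the proton pump that is needed for fusion, had the most negative H3K36me3 difference of those of the 77 genes whose groups did not overlap, with 32.2% and 51.4% in WT and 0.987% and 4.63% in cKO, both near 0.

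Of the 8 adhesion and cytoskeleton genes, 6 were lower for H3K27ac in both cKO libraries and none higher, 5 of the 6 having windows of 60 kb or more, where 60.8% of all genes were lower and 6.04% higher. In this role Ptk2b, Cbl, Cblb and Vav3 held lost regions of both marks. Of the 9 resorption genes, 7 held an H3K27ac region, 3 of them lower and 1 higher, beside 38.2% and 17.4% of all genes with a region. For H3K36me3 7 held a region, 3 of them higher and none lower, beside 7.84% and 37.7%. Of these 3, 2 had windows under 20 kb, where 12.1% of all genes were higher. The higher H3K27ac was that of Tcirg1, a subunit of the proton pump, at 56.2% and 7.98% in WT and 66.5% and 71.4% in cKO, where WT replicate 1 lay nearer to cKO than to WT replicate 2. Ctsk, the collagen-degrading protease cathepsin K, had H3K27ac over 63.0% and 53.0% in WT and over 58.8% and 56.5% in cKO, so that the groups overlapped, and H3K36me3 over 6.28% and 5.83% in WT and 22.1% and 22.5% in cKO.

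Of the 9 inhibitors of osteoclast formation, 6 were higher for H3K36me3 in both cKO libraries and 1 lower, beside 7.84% and 37.7% of all genes with a region, and 5 of the 6 had windows under 20 kb, where 12.1% were higher and 28.4% lower. For H3K27ac 2 of the 9 were higher and 2 lower, beside 17.4% and 38.2% of all genes with a region. Lilrb4a, an inhibitory receptor whose reads can be split with a near-identical paralog, had H3K36me3 over 39.2% and 39.6% in WT and 69.4% and 72.5% in cKO. Of the 8 ITAM co-stimulation genes, 4 were lower and 1 higher for H3K27ac, beside 38.2% and 17.4%. For H3K36me3 3 of the 8 were higher and none lower, beside 7.84% and 37.7%. All 3 had windows under 20 kb, where 12.1% of all genes were higher. Fcer1g, the adaptor through which OSCAR signals, had H3K36me3 over 58.1% and 50.1% in WT and 63.4% and 86.7% in cKO, and Btk had lost regions of both marks. Of the 5 genes of the ligand group, Tnfsf11 (RANKL) and Tnfrsf11b (its decoy receptor osteoprotegerin) were at 0% in all 10 libraries, and Csf1r, the M-CSF receptor, had H3K27ac over 47.4% and 35.5% in WT and 41.7% and 39.5% in cKO.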

How the data were processed

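CUT&RUN reads were trimmed with cutadapt, aligned to mm10 with Bowtie2 and called with HOMER findPeaks in histone style by the authors, separately for each library. Per the file headers, peaks of 500 bp at least 1000 bp apart were required to pass a Poisson p of 0.001, and 4-fold enrichment and a Poisson p of 0.0001 over IgG, the control named there being another one for each genotype. The deposited lists give region starts and ends with a constant score, so no height, read count or signal was analysed, and a region missed in a library can differ little in signal from a called one. Replicates are biological replicates per the labels.

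Regions of the autosomes, X and Y were read as 1-based coordinates. Coverage of each window, calls of lost and gained regions (overlap of at least 1 bp), medians and two-sided exact permutation tests were computed with Python 3.11.15, pandas 2.3.3, numpy 2.4.6 and scipy 1.17.1, over all 21911 protein-coding genes of GENCODE M21. A gene symbol with several models was represented by the longest. The code of the calling was tested on simulated regions with the same edges in each library that held them, in windows overlapping no other. How well lost and gained calls hold on real lists was not tested by it. Pathway genes were named when lost, or gained, regions of both marks were found, or when among the 3 most negative or 3 most positive differences of a mark whose groups did not overlap; Ctsk, Csf1r, Tnfsf11 and Tnfrsf11b, Calcr and Mmp9 were named after their values were seen. A gene that met the rule is not reported here. The 2 most alike genes of each member were sought. The members and lists were chosen with earlier results of these data known, and the windows of 1 kb around starts and the classes of window length (20 and 60 kb) after the values were seen. Alternatives are given in the closing section.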

Additional observations from a re-analysis of the deposited data

How the results depend on the processing

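Of the recomputed counts and medians, 75 stayed within 1.5 times or within the spread between libraries, and 29 moved. Shares over all genes were computed under the main setting only, so the counts of this section have none beside them. With regions of at least 1 kb only, the pathway genes with a gained H3K27ac region numbered 6, the members with a lost H3K36me3 region 3, and the median H3K36me3 difference was -0.952 points. The H3K27ac lists held 61764 and 54630 regions in WT and 35018 and 41444 in cKO. With lists of equal number, 23 pathway genes in place of 40 had a lost H3K27ac region. A gained H3K36me3 region was then found at 14 in place of 9. Over the gene body only, the median H3K36me3 difference was -0.920 points, and the H3K27ac difference at Fos turned to -0.281 points. With 20 kb added on both sides, 21 pathway genes had a gained H3K27ac region and 1 member a gained H3K36me3 region. With regions within 1 kb joined, 1 member and 4 pathway genes had a gained H3K27ac region, and for H3K36me3 0 members and 13 pathway genes had a lost and 3 pathway genes a gained region. When a library had to cover at least 50% of a merged region, gained H3K27ac regions at members numbered 7 in place of 2 and lost H3K36me3 regions 5 in place of 3, with 4 at Nfatc1 and 1 at Oscar.

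Leaving out 1 library at a time, 15 to 45 pathway genes had a gained H3K27ac region, 2 to 4 members a lost and 0 to 1 members a gained H3K36me3 region, 11 to 32 pathway genes a gained H3K36me3 region, and the median H3K36me3 difference ran from -4.41 to 0 points, a call then resting on 3 libraries. Gained H3K27ac regions of pathway genes numbered 27 without WT replicate 1, 45 without cKO replicate 1 and 29 without cKO replicate 2, and gained H3K36me3 regions 17 without WT replicate 2, 32 without cKO replicate 1 and 24 without cKO replicate 2. Members with a lost H3K36me3 region numbered 4 without either WT library and 2 without either cKO library, and the gained 1 and the median of 0 were found without cKO replicate 1. At single genes, the H3K27ac differences kept their direction without any 1 library at Tnfrsf11a (-32.1 to -22.0 points), Traf6 (-13.2 to -2.52), Fos (31.7 to 37.6) and Nfatc1 (-6.48 to -2.04), as did H3K36me3 at Nfatc1 (-37.0 to -10.99) and Fos (5.16 to 7.91).

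The labels do not say whether WT and cKO replicates of the same number were handled together. Replicate deviations correlated at -0.0999 for H3K27ac and 0.105 for H3K36me3 over genes, which cannot settle it. With the replicate block, a call in both same-numbered pairs, 31 pathway genes had a gained H3K27ac region and 24 a gained H3K36me3 region, and 4 members had a lost and 1 a gained H3K36me3 region; no other count moved by over 1.5 times. The lists hold no height, and 2 libraries per group allow no p below 0.333. The effect of depth was not tested; the deepest H3K27ac library, cKO replicate 1, covered the least.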
